A study of Mus musculus with 6 samples.

Results

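Cyclic hypoxia was compared with normoxia in B16 cells, a mouse melanoma line, as the array of the cells collected at the end of cyclic hypoxia against the array of the cells kept in normoxia. These are 2 of the 6 Affymetrix arrays of a study on hypoxia and the metastatic potential of these cells, and each group has 1 array, made from 5 µg of total RNA. All cells, controls included, were grown with 10% fetal calf serum, which was withdrawn 2 h before the exposure began. The normoxia cells were labelled as 3 h in normoxia. The cyclic cells had 3 periods of 1 h of hypoxia (less than 1% oxygen) with 30 min of reoxygenation between them, which adds up to 4 h. The other arrays were used as company for these: normoxia +1h, kept for 1 h longer, cyclic hypoxia followed by 1 h of reoxygenation, chronic hypoxia of 3 h without a break, and chronic hypoxia followed by 1 h of reoxygenation. The labels do not say that any control was matched to the cyclic regime in total time, and normoxia +1h is the nearer in length. Of 12393 genes named on the array, each read from its brightest probe set, 3573 had a mean signal of 100 or more over the 6 arrays and were described as the main set. At that limit Brcc3 was just inside, with a mean signal of 100.1, and Cnppd1 just outside, with 99.97. A signal is the array's brightness on a linear scale, in arbitrary units, and every difference below is in log2 units, cyclic hypoxia minus normoxia unless another pair is named, so that 1 is 2-fold. Where 3 signals of a gene are given in a row they are those in normoxia, normoxia +1h and cyclic hypoxia, in that order. No difference between single arrays has an error of its own and none was tested.

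Cells read oxygen through prolyl hydroxylases, which mark HIF-1α for destruction while oxygen is present. When oxygen falls the HIF transcription factors stay and turn on genes of glucose uptake, glycolysis, mitophagy and oxygen sensing itself. Low oxygen also hampers protein folding in the endoplasmic reticulum and activates kinases that slow translation and favour ATF4, the factor behind the integrated stress response, while each return of oxygen brings reactive oxygen species, to which the NRF2 pathway responds. Tumours with unstable blood flow pass through such cycles, and melanoma is a tumour in which they have been studied.

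At the end of cyclic hypoxia 37 genes of the main set were 2-fold or more higher than in normoxia (1.04%) and 52 were 2-fold or more lower (1.46%). The higher genes were led by the linker histone H1f2, the arginine-rich splicing-related protein Rsrp1, the ribosome rescue GTPase Gtpbp2, hexokinase 2 (Hk2) and the histone demethylase Kdm3a. The lower genes were led by Zdhhc6, a palmitoyltransferase, Fignl1, an ATPase of DNA repair, Mrpl33 of the mitochondrial ribosome and the RNA-binding protein Tardbp. Between the normoxia arrays, the only pair without a difference in oxygen, no gene was 2-fold higher (0%) and Mrpl33 alone was 2-fold lower (0.028%) with the extra hour. The SD of the differences over the main set was 0.41 for cyclic hypoxia and 0.21 between the normoxia arrays. The median of all differences was 0.04, and 54.8% of genes were above 0 and 45.2% below.

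**Figure D1:**
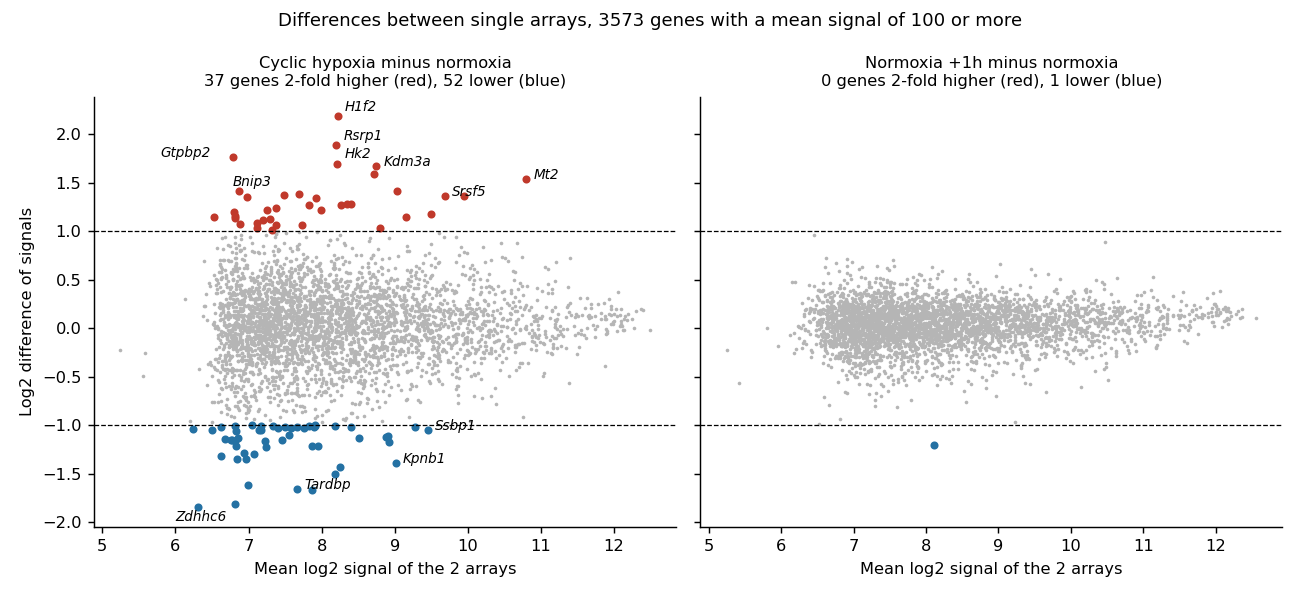
Each point is 1 of 3573 genes, with the mean log2 signal of the arrays compared on the x axis and the log2 difference on the y axis, for cyclic hypoxia minus normoxia on the left and normoxia +1h minus normoxia on the right. Dashed lines mark 2-fold. The left cloud is wider (SD 0.41 against 0.21), with 37 red and 52 blue genes on the left and 1 blue gene on the right.

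The choice of control bears on the lower genes above all. All 37 higher genes stood above both normoxia arrays on the cyclic array and all 52 lower genes below both, a position outside both normoxia arrays that 2876 of the 3573 genes of the main set shared. Set against normoxia +1h, 26 genes were 2-fold higher (0.728%) and 19 lower (0.532%). Of the 37 higher genes 20 were among those 26, and of the 52 lower genes 14 were among those 19. With that control the higher genes made up 57.8% of the calls, against 41.6% with the normoxia array and 52.5% with the mean of both. The difference between the normoxia arrays themselves, normoxia +1h minus normoxia, was above 0 in 59.1% of the main set and below 0 in 40.9%. It ran from -1.20 to 0.36 with a median of -0.30 over the 52 lower genes, and from -0.45 to 0.89 with a median of 0.20 over the 37 higher genes. Both differences use the same normoxia array, so a normoxia signal that was by itself high or low moves them together, and the part of this in the counts was not tested.

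The levels and the probe sets of these genes set a further bound. On the normoxia array 11 of the 37 higher genes were under 100, and on the cyclic array 24 of the 52 lower genes were, so that part of each set could reach the main set through the arrays where the gene was bright. Among genes with a mean signal of 100 to 200, 2.14% were 2-fold lower, and among those of 500 or more 0.333% were, while the higher genes took 0.999% and 1.11%. There were 983 genes with more than 1 probe set in the main set, and the brightest pair of probe sets of a gene differed by a median of 0.25, with 24 genes 1 or more apart. Of 13 higher genes with another such probe set, it was above 0 in 13 and 2-fold higher in 6. Of 13 lower genes it was below 0 in 11 and 2-fold lower in 3. The other probe sets had a median of 0.94 for the higher genes and -0.46 for the lower genes.

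**Figure D2:**
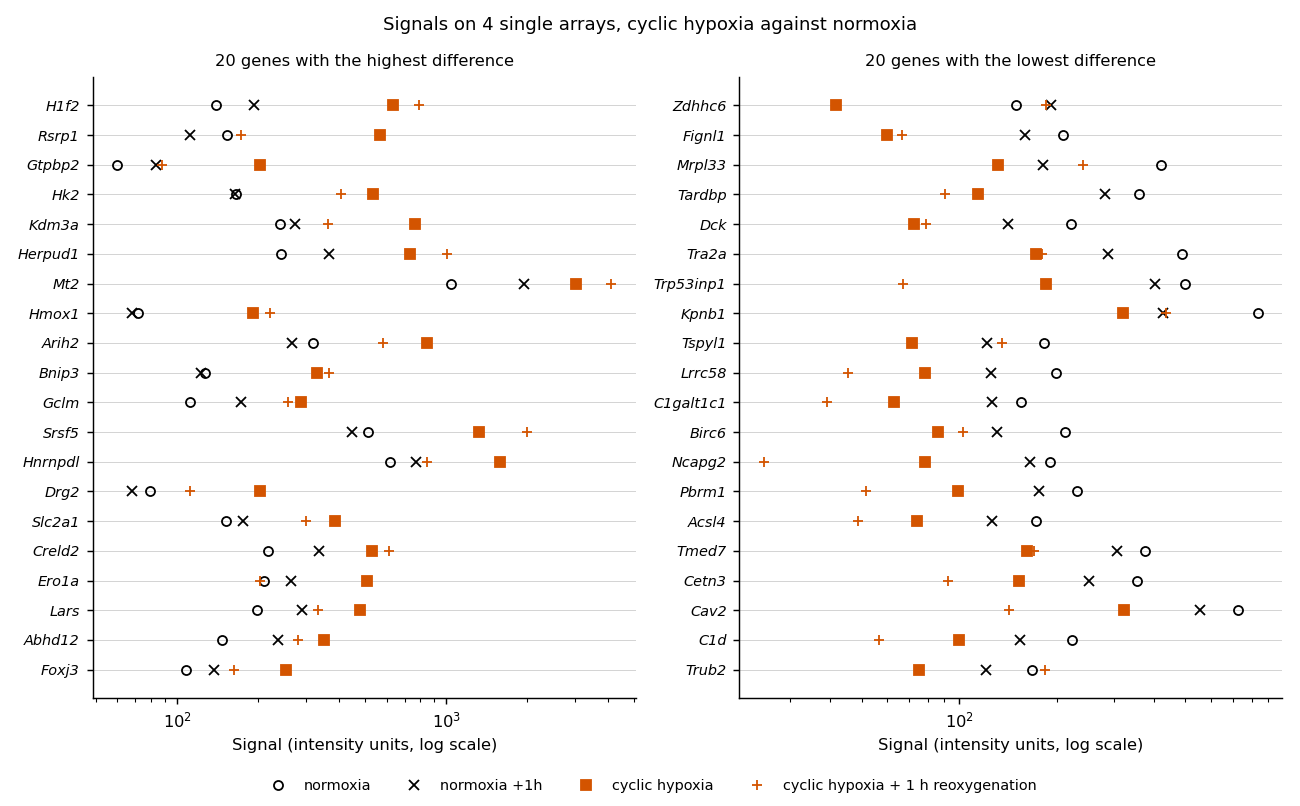
Signals on a log axis for the 20 genes with the highest difference (left) and the 20 with the lowest (right). Circles and crosses are the normoxia arrays, orange squares cyclic hypoxia, and orange plus signs cyclic hypoxia with 1 h of reoxygenation. H1f2 lies at 139.7 and 193 in the normoxia arrays and 634 after cyclic hypoxia, and the circle lies to the right of the cross for most genes on the right, as for Mrpl33 with 419 and 182.

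The oxygen-sensing genes themselves differed little, and the effectors that HIF is known to drive were higher in nearly all cases, mostly by less than 2-fold. Hif1a, the oxygen-labile subunit, had signals of 557 in normoxia, 472 in normoxia +1h and 449 after cyclic hypoxia, a difference of -0.31. The cyclic signal was below both controls. Egln1, the prolyl hydroxylase that marks HIF and is itself a HIF target, was at 174, 199 and 228 in the same order, a difference of 0.39, with cyclic hypoxia above both controls. Os9, an endoplasmic reticulum lectin listed with them, differed by -0.09, and the other 8 measured genes of oxygen sensing were below the main set.

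Of 16 HIF effectors outside glycolysis in the main set, 15 were above 0 (54.8% of the main set) and 2 were 2-fold higher (1.04%). Their median was 0.37. Bnip3, a receptor that sends mitochondria to autophagy, had signals of 127 in normoxia, 123 in normoxia +1h, 332 after cyclic hypoxia, 366 after its reoxygenation, 803 after chronic hypoxia and 549 after chronic hypoxia with reoxygenation. All 4 hypoxic arrays stood above both controls, and the difference was 1.38. Ero1a, an oxidase that forms disulfide bonds, was at 209.7 and 264 in the controls, 509 after cyclic hypoxia, 203 after its reoxygenation and 1367 after chronic hypoxia, a difference of 1.28. It was thus back below normoxia +1h in the hour after the last cycle, and for the end of the cycles its other probe sets read 0.55 and 1.64. Below 2-fold came Ndrg1, a stress-induced growth suppressor, at 0.99, the corepressor subunit Sap30 at 0.79 and the HIF antagonist Cited2 at 0.64. The brightest was Mif, a secreted cytokine, at 3069.8 in normoxia, with a difference of 0.14. Higd1a, a mitochondrial protein, was at 0.07, Hilpda of lipid droplets at 0.09 and the mTORC1 inhibitor Ddit4 at 0.27, so these 3 differed by less than most genes of the list. Tfrc, the transferrin receptor, was the member below 0, with 649.8 in normoxia, 678 in normoxia +1h and 433 after cyclic hypoxia, a difference of -0.58.

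Genes that carry glucose into the cell and through glycolysis were above normoxia in 13 of 14 cases (54.8% of the main set). Of these, 3 were 2-fold or more higher (1.04%), and the median of the list was 0.48. Hk2, which traps glucose by phosphorylation, had signals of 165 in normoxia, 164 in normoxia +1h, 534 after cyclic hypoxia, 405 after its reoxygenation, 1279 after chronic hypoxia and 885 after chronic hypoxia with reoxygenation. The controls were nearly equal and every hypoxic array was higher, with a difference of 1.69 for cyclic hypoxia. Slc2a1, the glucose transporter GLUT1, was at 152 and 175 in the controls and 385 after cyclic hypoxia, a difference of 1.34 (1.10 and 1.53 at its other probe sets). Pfkp, the platelet form of phosphofructokinase, was at 115, 156 and 241, a difference of 1.07, of which 0.43 was also seen between the controls. The later and brighter steps differed less. Lactate dehydrogenase Ldha was at 0.63, pyruvate kinase Pkm at 0.58, aldolase Aldoa at 0.46, triosephosphate isomerase Tpi1 at 0.26 and phosphoglycerate kinase Pgk1, the brightest of the list with 2886 in normoxia and 3339 after cyclic hypoxia, at 0.21. Hexokinase 1, Hk1, the constitutive form, was the member below 0, at -0.39, and it also differed by -0.39 between the controls. Below the main set, Pdk1, the kinase that holds pyruvate back from mitochondria, went from 25 and 28.1 in the controls to 83.5, while the transporter Slc2a3 was at 63.0, 74.6 and 36.3.

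HIF binds a short core, ACGTG or GCGTG, read on either strand. The 150 bases before the annotated start of 3 HIF targets far above normoxia are shown because every hypoxic array of theirs stood above both controls, with each match to the core in capitals, from RefSeq on GRCm38.p6. Bnip3 (chr7:138909507-138909656, minus strand), Slc2a1 (chr4:119108595-119108744, plus strand) and Hk2 (chr6:82774455-82774604, minus strand) read as follows, 5′ to 3′.
Bnip3: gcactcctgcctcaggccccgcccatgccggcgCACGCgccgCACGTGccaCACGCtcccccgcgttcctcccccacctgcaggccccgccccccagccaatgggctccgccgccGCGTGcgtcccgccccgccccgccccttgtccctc
Slc2a1: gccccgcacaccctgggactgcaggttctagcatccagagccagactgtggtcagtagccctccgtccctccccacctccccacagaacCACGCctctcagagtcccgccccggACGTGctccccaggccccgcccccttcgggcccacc
Hk2: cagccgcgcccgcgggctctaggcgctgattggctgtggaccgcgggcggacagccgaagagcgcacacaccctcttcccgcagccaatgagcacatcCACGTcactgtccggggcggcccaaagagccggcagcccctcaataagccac
Bnip3 held 5 matches in this window, 1 pair of them overlapping in a palindrome, Slc2a1 held 2 and Hk2 held 1. Such a short core is common: over the 250 bases before the start, either form was in 68.8% of the 32 higher genes with a promoter in the table, 71.4% of 42 lower genes and 66.6% of 2976 genes of the main set. The ACGTG form alone was in 28.1%, 19.0% and 27.9% of them. It was in 9 of 14 glucose genes and in 9 of 13 HIF effectors with a promoter. The 9 glucose genes that held it, Hk2, Slc2a1, Ldha, Pgm1, Pkm, Pgam1, Aldoa, Pgk1 and Pdk3, had a median difference of 0.58, and the 5 without it, Pfkp, Pfkl, Tpi1, Aldoc and Hk1, a median of 0.26. These lists were chosen as HIF targets, so a higher share in them is no finding of these arrays.

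Among proteins of the JmjC family, many of which need oxygen to remove methyl groups from histones, Kdm3a was the only one called in the main set. Kdm3a, which acts on histone H3 lysine 9 and is a HIF target, had signals of 241 in normoxia, 273 in normoxia +1h, 767 after cyclic hypoxia, 363 after its reoxygenation, 729 after chronic hypoxia and 883 after chronic hypoxia with reoxygenation, a difference of 1.67. It was high on both chronic arrays and at the end of the cycles, and much nearer the controls 1 h after the last cycle. Jmjd6, a hydroxylase of splicing factors, was at 85.5, 76.6 and 167 in normoxia, normoxia +1h and cyclic hypoxia, a difference of 0.96, just under 2-fold. Jarid2 and Kdm2b were at 0.24 and -0.28, and 12 measured members were below the main set. Those dimmer members ran from Riox2 at -0.86 to Kdm5b at 39.7, 47.5 and 87.2 (1.14).

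The integrated stress response was among the lists with the most positive medians, and its amino acid genes stood together. Of 24 members in the main set 21 were above 0 (54.8% of the main set) and 3 were 2-fold higher (1.04%). The median was 0.53 against 0.04 over all genes. Gtpbp2 had signals of 59.9 in normoxia, 83.4 in normoxia +1h, 204 after cyclic hypoxia and 87.7 after its reoxygenation, a difference of 1.77. Its other probe sets gave 0.41 and 0.45, so its size depends on the probe set. Eif2ak3, the PERK kinase that starts the response in the endoplasmic reticulum, was at 100.1, 109.9 and 232, a difference of 1.21, and at 102 after reoxygenation. Trib3, a pseudokinase induced by ATF4 and CHOP, was at 106, 112 and 231, a difference of 1.12, and at 339.9 after reoxygenation. Trib3 was therefore as high or higher an hour after the last cycle, where Gtpbp2 and Eif2ak3 were at or near the level of normoxia +1h.

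Just under 2-fold lay the pair of chains that form the large neutral amino acid transporter, Slc3a2 at 555, 642 and 1097 (0.98) and Slc7a5 at 219, 249 and 426 (0.96). They were followed by Psph, the last enzyme of serine synthesis, at 0.90, asparagine synthetase Asns at 0.88, and the one-carbon enzymes Shmt2 at 0.79 and Mthfd2 at 0.60. Asns, the brightest of the list over the 6 arrays, was at 1039 and 1341 in the controls, 1907 after cyclic hypoxia and 1948 after its reoxygenation. Phgdh, the first enzyme of serine synthesis, went from 1117 to 1282, a difference of 0.20. Of the transcription factors of the response, Atf4 was at 0.44, Cebpb at 0.22, Ddit3 (CHOP) at 0.19 and Atf5 at -0.03. Chac1, which degrades glutathione, and Cebpg, a partner of ATF4, were below 0, at -0.43 and -0.42.

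The promoter of Asns is shown for its match to the core TGATGNAA (both strands searched), the part of the composite element that ATF4 and its partners bind. It covers the 150 bases before the RefSeq start on GRCm38.p6, chr6:7693210-7693359, minus strand, 5′ to 3′, with the match in capitals.
Asns: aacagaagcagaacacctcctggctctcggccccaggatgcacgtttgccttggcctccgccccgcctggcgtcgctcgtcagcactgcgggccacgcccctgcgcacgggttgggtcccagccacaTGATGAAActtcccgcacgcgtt
This core was in 5 of the 20 stress response genes with a promoter in the table, Asns, Pck2, Vldlr, Nupr1 and Chac1, and in 2.28% of the main set. The 5 genes had a median difference of 0.37 and the 15 without a match 0.44. Whether a match in this window goes with the difference was not tested.

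The cytosolic aminoacyl-tRNA synthetases, which load tRNAs and several of which are ATF4 targets, were above 0 in 12 of 14 cases (54.8% of the main set). Their median was 0.36, and 2 were 2-fold higher (1.04%). Lars, for leucine, was at 198 in normoxia, 291 in normoxia +1h and 478 after cyclic hypoxia, a difference of 1.27, of which 0.55 was also found between the controls. Sars, for serine, was at 479, 591 and 1083, a difference of 1.17, and 1.20 at its other probe set in the main set. Eprs, Nars and Gars followed at 0.85, 0.84 and 0.79, while Farsb was at 0.03, Hars at -0.24 and Qars at -0.37. The list had a median of 0.01 between the normoxia arrays, but its members differed there in both directions. Normoxia +1h minus normoxia was 0.52 for Eprs, 0.30 for Sars and 0.25 for Gars, and -0.34 for both Hars and Qars. Against normoxia +1h, cyclic hypoxia gave 0.87 for Sars, 0.73 for Nars, 0.71 for Lars, 0.34 for Eprs, 0.10 for Hars and -0.03 for Qars.

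**Figure D3:**
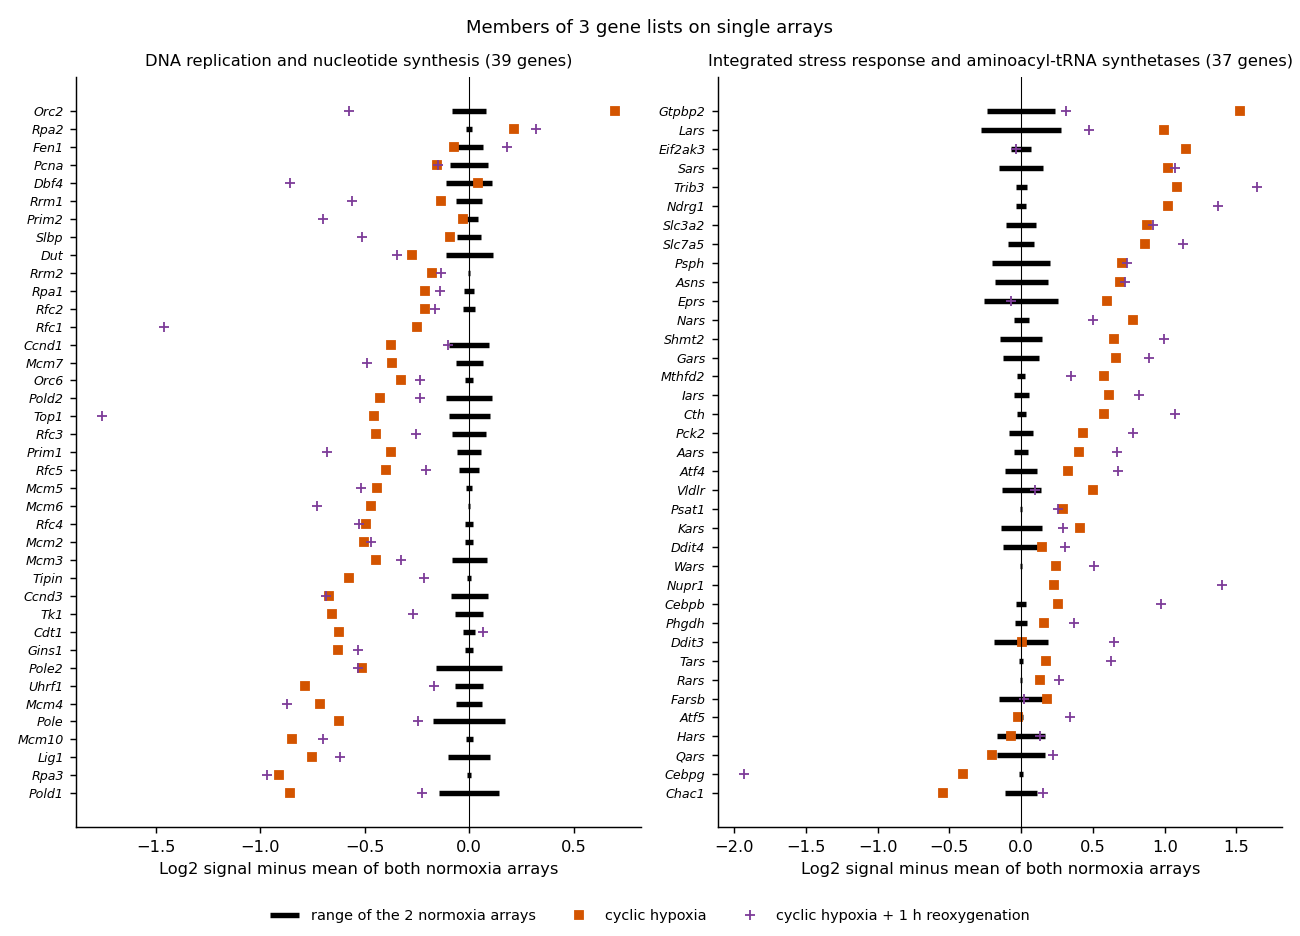
Log2 signal relative to the mean of the normoxia arrays for 39 genes of DNA replication and nucleotide synthesis (left) and for 37 genes of the integrated stress response and the aminoacyl-tRNA synthetases (right). Black bars span the normoxia arrays, squares are cyclic hypoxia and plus signs cyclic hypoxia with 1 h of reoxygenation. Most squares lie to the left of the bars on the left, down to Pold1 and Rpa3, and to the right of them on the right, up to Gtpbp2.

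Genes of protein folding and degradation in the endoplasmic reticulum were split. Of 24 members 17 were above 0 (54.8% of the main set) and 3 were 2-fold higher (1.04%), with a median of 0.28. Herpud1, which helps to take misfolded proteins out of the organelle, had signals of 243 in normoxia, 366 in normoxia +1h, 732 after cyclic hypoxia and 1009 after its reoxygenation, a difference of 1.59 (1.17 at its other probe set). Creld2, a secreted disulfide isomerase, was at 218, 337, 529.8 and 614 in the same order, a difference of 1.28. Both were higher still after the last hour, and both also differed between the controls, by 0.59 and 0.63. The third was Ero1a, described above. Hspa5 (BiP), the main chaperone of the organelle and the brightest of the list, was at 2103, 2577 and 3471, a difference of 0.72. Manf, a cofactor of BiP, was at 0.73 and the transcription factor Xbp1 at 0.75. On the other side stood the chaperone Hsp90b1 (GRP94), at 733, 623 and 474, a difference of -0.63, the PERK inhibitor Dnajc3 at -0.67 and the lectin chaperone Canx at -0.51. Each of these was also lower in normoxia +1h than in normoxia.

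The promoters of Creld2 and Hspa5 are shown because both hold the endoplasmic reticulum stress element, CCAAT and CCACG with 9 bases between them on either strand, which ATF6 and XBP1 use, and yet their differences were unlike. Both windows are the 150 bases before the RefSeq start on GRCm38.p6, plus strand, chr15:88819496-88819645 for Creld2 and chr2:34771940-34772089 for Hspa5, 5′ to 3′, with the element in capitals.
Creld2: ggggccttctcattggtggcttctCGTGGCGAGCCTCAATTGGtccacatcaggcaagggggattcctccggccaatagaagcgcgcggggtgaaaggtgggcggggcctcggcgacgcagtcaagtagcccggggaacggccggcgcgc
Hspa5: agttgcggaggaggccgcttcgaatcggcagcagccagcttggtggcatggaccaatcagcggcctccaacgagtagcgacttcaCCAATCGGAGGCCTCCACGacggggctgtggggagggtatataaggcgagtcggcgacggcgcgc
Of 2976 promoters of the main set 7 held this element within 250 bases of the start (0.235%), and these were Creld2, Hspa5, Pdia6, Calr, Canx, Hsp90b1 and Dnajc3, all on the folding list. They ran from -0.67 (Dnajc3) to 1.28 (Creld2), with a median of 0.11. The 13 listed genes without it, Herpud1 and Xbp1 among them, had a median of 0.39.

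Among genes of the NRF2 pathway, glutathione and thioredoxin, 14 of 25 were above 0, near the 54.8% of the main set. Of the 25, 2 were 2-fold higher (1.04% of the main set), and the median of 0.08 was close to that of all genes. Hmox1, heme oxygenase 1, which breaks down heme, had signals of 71.5 in normoxia, 67.9 in normoxia +1h, 191 after cyclic hypoxia, 221 after its reoxygenation, 187 after chronic hypoxia and 164 after chronic hypoxia with reoxygenation, a difference of 1.42. Gclm, the regulatory subunit of the enzyme that starts glutathione synthesis, was at 111, 173 and 287, a difference of 1.37 with 0.63 between the controls. Srxn1 (sulfiredoxin, which restores peroxiredoxins) was at 173, 182 and 344, a difference of 0.99 that fell just short of 2-fold, the autophagy receptor Sqstm1 at 0.88 and thioredoxin reductase Txnrd1 at 0.68. These 5 inducible genes were the top of the list. The abundant enzymes were near 0, with thioredoxin Txn1 at -0.09, the pentose phosphate enzymes Tkt and Pgd at -0.06 and -0.10 and Gpx4 at 0.08, and Nfe2l2, NRF2 itself, was at -0.13.

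Of the metallothioneins, small cysteine-rich proteins that bind zinc and copper, Mt2 was high and Mt1 was not called. Mt2 had signals of 1044 in normoxia, 1938 in normoxia +1h, 3026 after cyclic hypoxia, 4095 after its reoxygenation, 2915 after chronic hypoxia and 3439.8 after chronic hypoxia with reoxygenation. The difference was 1.54 against normoxia and 0.64 against normoxia +1h, and the normoxia arrays themselves differed by 0.89. Mt1 was at 3734, 4880.5 and 4828, a difference of 0.37, with cyclic hypoxia between the controls. These signals are near the top of the scale, where the maximum was 5802 in normoxia and 6035 after cyclic hypoxia. The Mt1 probe set is also of a design whose probes may match several transcripts. Whether either limited its difference was not tested. The zinc transporter Slc39a7 was at 0.79 and the ferritin heavy chain Fth1 at 0.30. Of 12 genes of metal handling, 7 were above 0, near the 54.8% of the main set, and only Mt2 was 2-fold higher (1.04% of the main set).

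The neighbouring genes Mt2 and Mt1 are set side by side for the metal response element, with the core TGCGCNC or TGCACNC on either strand, which the zinc sensor MTF1 binds. Shown are the 250 bases before each RefSeq start on GRCm38.p6, plus strand, chr8:94172368-94172617 for Mt2 and chr8:94178839-94179088 for Mt1, 5′ to 3′, with matches in capitals.
Mt2: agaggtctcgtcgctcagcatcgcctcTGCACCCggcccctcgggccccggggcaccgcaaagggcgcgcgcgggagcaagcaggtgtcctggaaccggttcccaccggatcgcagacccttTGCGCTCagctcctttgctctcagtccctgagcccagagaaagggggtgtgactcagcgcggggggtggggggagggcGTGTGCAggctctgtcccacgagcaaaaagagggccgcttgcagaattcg
Mt1: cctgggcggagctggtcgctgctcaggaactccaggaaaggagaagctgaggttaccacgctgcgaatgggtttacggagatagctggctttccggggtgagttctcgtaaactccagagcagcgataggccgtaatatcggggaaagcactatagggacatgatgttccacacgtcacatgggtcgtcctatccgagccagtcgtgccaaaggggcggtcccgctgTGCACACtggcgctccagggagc
Within these windows Mt2 held 3 matches and Mt1 held 1. Bases past the annotated RefSeq start were not searched, so these are not counts of all such elements of either gene. Whether the matches go with the differences was not tested. The core is frequent, in 46.9% of the higher genes, 26.2% of the lower genes and 35.2% of the main set.

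RNA-binding and splicing genes had a median near 0 and members at both ends, from -1.66 (Tardbp) to 1.36 (Srsf5). Of 39 genes 18 were above 0 (54.8% of the main set) and 21 below (45.2%). Of these 39, 2 were 2-fold higher (1.04%) and 2 were 2-fold lower (1.46%), and the median was -0.02. Srsf5, a serine- and arginine-rich splicing factor, had signals of 513 in normoxia, 445 in normoxia +1h, 1320.2 after cyclic hypoxia, 1989 after its reoxygenation, 739 after chronic hypoxia and 875 after chronic hypoxia with reoxygenation, a difference of 1.36. Hnrnpdl, a nuclear ribonucleoprotein that regulates its own splicing, was at 616, 771, 1579 and 846 in normoxia, normoxia +1h, cyclic hypoxia and its reoxygenation, a difference of 1.36. Its probe sets ran from -0.27 to 1.82. Srsf5 was still higher 1 h after the last cycle and Hnrnpdl was back near the controls. The CLK kinases, which phosphorylate SR proteins, were mixed: Clk1 was at 119, 117 and 232 (0.97), and below the main set Clk4 was at 31.3, 32 and 139 (2.15), Clk3 at 64.0, 65.2 and 102 (0.67) and Clk2 at 80.1, 78.8 and 67.0 (-0.26), under both controls. An hour later Clk1 was at 61.4 and Clk4 at 28.8. Cirbp, the cold-inducible RNA-binding protein, also below the main set, was at 31.5 and 36.6 in the controls, 128 after cyclic hypoxia and 136 after its reoxygenation (2.03).

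Rsrp1, an arginine- and serine-rich protein not on that list, was likewise high at the end of the cycles and much lower an hour later. Its signals were 153 in normoxia, 112 in normoxia +1h, 566 after cyclic hypoxia, 172 after its reoxygenation, 251 after chronic hypoxia and 324 after chronic hypoxia with reoxygenation, a difference of 1.89, and 1.90 at its other probe set in the main set. At the low end Tardbp (TDP-43), which binds RNA and keeps its own level by a feedback on its transcript, was at 360.1, 283, 114, 90.8, 257 and 253 in that order of arrays, a difference of -1.66. Only the cyclic arrays were low, and another bright probe set gave -1.41, while its dimmer ones gave -0.17 and -0.32. Tra2a, a splicing activator, was at 489, 288 and 173, a difference of -1.50 of which -0.77 was also found between the controls. Hnrnpk, Hnrnpu and Srsf1, all bright, were at -0.62, -0.63 and -0.69, and each was lower in normoxia +1h too (-0.40, -0.34 and -0.36).

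H1f2, which encodes a linker histone whose transcript can be polyadenylated, was the highest gene of the main set. Its signals were 139.7 in normoxia, 193 in normoxia +1h, 634 after cyclic hypoxia, 791 after its reoxygenation, 229.9 after chronic hypoxia and 245 after chronic hypoxia with reoxygenation, a difference of 2.18. Both cyclic arrays stood above the other 4, and the other probe sets gave 1.48 and 2.32. Linker histone genes are alike in sequence, and the probe sequences were not used here. The other 8 histone and chromatin protein genes of that list ran from -0.07 (Hmgn1) to 0.70 (Macroh2a1), none of them called.

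Genes of DNA replication and nucleotide synthesis were lower together by small amounts. Of 39 members 37 were below 0 (45.2% of the main set), with a median of -0.43, and Pold1, the catalytic subunit of DNA polymerase delta, reached 2-fold. Pold1 was at 187 in normoxia, 153 in normoxia +1h and 93.5 after cyclic hypoxia, a difference of -1.0. Rpa3, the small subunit of the protein that coats single-stranded DNA, was at 490.4, 483 and 259 (-0.92), DNA ligase Lig1 at 292, 254 and 162 (-0.85) and the replication initiation factor Mcm10 at 142, 145 and 79.7 (-0.83). In these genes cyclic hypoxia lay below both normoxia arrays. All 6 subunits of the MCM helicase were below 0, with Mcm2 at -0.52, Mcm3 at -0.53, Mcm4 at -0.77, Mcm5 at -0.46, Mcm6 at -0.48 and Mcm7 at -0.31. The clamp loaders Rfc1 to Rfc5 ran from -0.51 (Rfc4) to -0.24 (Rfc2). Of the 2 brightest members, the sliding clamp Pcna was at 3073, 3483 and 2938 (-0.06) and Rpa1 at 2443, 2521 and 2141 (-0.19). Orc2, of the origin recognition complex, and Rpa2 were above 0, at 0.78 and 0.23.

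The same list had a median of 0.02 between the normoxia arrays, with 18 of 39 genes below 0, and a median of -0.44 against normoxia +1h. In the later pair of arrays, cyclic hypoxia with reoxygenation against normoxia +1h, 36 of 39 were below 0 (46.9% of the main set) with a median of -0.45. A core that E2F factors bind, TTTGGCGC and its variants TTTCCCGC, TTTCGCGC and TTTGCCGC on either strand, was in 5 of 32 promoters of the list (Mcm5, Mcm6, Mcm7, Rfc3 and Uhrf1) and in 4.6% of the main set. The 5 genes ran from -0.72 (Uhrf1) to -0.31 (Mcm7), with a median of -0.46. The 27 listed genes without it ran from -1.0 to 0.78, with a median of -0.36. Whether the core goes with the difference was not tested. Mitosis genes were less uniform, with 18 of 27 below 0 (45.2% of the main set), none called and a median of -0.10. They ran from Spc25 of the kinetochore at -0.74 to the kinase Aurka at 0.63. In the later pair these genes ran from the kinase Plk4 at -2.07 to Aurka at 0.74. Mitosis genes below the main set ran from Itgb3bp at -1.72 to Cenpe at 1.31, and several were more than 2-fold lower. The normoxia signal of Cenpe was under the floor. A lower share of cells in S phase and less RNA per cell cannot be told apart in such bulk samples. Below the main set Cdc6, which loads the MCM helicase, was at 135, 111 and 47.8 (-1.50).

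The cytosolic heat shock genes were balanced, with 13 of 26 above 0 (54.8% of the main set) and a median at 0 to 2 decimals. Of the 26, 2 were 2-fold lower (1.46% of the main set). Hspa1b, the inducible HSP70, had signals of 108 in normoxia, 126 in normoxia +1h, 52.5 after cyclic hypoxia, 52.0 after its reoxygenation, 532 after chronic hypoxia and 35.8 after chronic hypoxia with reoxygenation, a difference of -1.04. Both cyclic arrays were below both controls, the array at the end of chronic hypoxia was the highest of the 6 and that after its reoxygenation the lowest. The mean signal of Hspa1b, 151, which placed it in the main set, rests largely on the array at the end of chronic hypoxia. Hspa1a, a near-identical copy, could share these probes. Chordc1, a cochaperone of HSP90, was at 206, 219 and 99.8 (-1.05), and Hsph1 and Hsp90aa1 were at -0.76 and -0.72. Hspa8, the constitutive HSP70 and the brightest of the list, went from 4316 to 3297 (-0.39). Bag5 and mitochondrial Hspa9 were the highest members, at 0.83 and 0.72.

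The identity genes of the cells were present, and those in the main set ran from Mitf at -0.91 to Slc45a2 at 0.59. Of 8 defining melanocyte markers all were in the main set, with a summed signal of 19249 in normoxia and 21173 after cyclic hypoxia, while no marker of fibroblasts, immune cells, endothelium or keratinocytes reached the main set. Of 18 melanocyte and pigment genes 13 were above 0 (54.8% of the main set), with a median of 0.18 and none called. Dct and Tyrp1, enzymes of melanin synthesis and the brightest of the list, were at 0.18 and 0.20. Mc1r was at 179, 198 and 114 (-0.65), below both controls, and Mlph at -0.52. Mitf, the transcription factor that governs the lineage, had signals of 2366 in normoxia, 2568 in normoxia +1h, 1256 after cyclic hypoxia, 635 after its reoxygenation, 2820.1 after chronic hypoxia and 2225 after chronic hypoxia with reoxygenation, a difference of -0.91. The cyclic arrays were the lowest of the 6.

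Genes tied to invasion were not called in either direction. Of 17 proteases, inhibitors and adhesion genes 12 were above 0 (54.8% of the main set) and the median was 0.20. They ran from the sheddase Adam10 at 523, 369 and 279.8 (-0.90) to the hepatocyte growth factor receptor Met at 128, 152 and 207 (0.69). Sparc, a matrix protein and the brightest of the list, was at 0.49, and the hyaluronan receptor Cd44 at 0.20. Of 21 angiogenic factors on the array 19 were below the main set, among them Vegfa at 35.1, 28.7 and 44.1. In the main set Vegfb was at 0.37 and Ccn1 at 41.0, 35.2 and 35.2 (-0.22). The mean signal of Ccn1, 111, rests largely on the chronic arrays, at 206 and, after reoxygenation, 244.

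Immediate-early genes of growth factor and stress signalling were not called, with 5 of 11 above 0 (54.8% of the main set) and a median of -0.05. Egr1, an early growth response factor, was at 52.1, 35.2 and 43.7, a difference of -0.26, and only after the last hour of reoxygenation at 333. Ier3, an early survival gene, was the highest member, at 378, 430.1 and 623 (0.72). All 5 NF-kB genes in the main set were above 0, from Tnip1 at 0.02 to the inhibitor Nfkbia at 883, 894 and 1346 (0.61). So were 6 of 7 feedback genes of MAP kinase signalling, led by Errfi1 at 0.70, against 54.8% of the main set. Normoxia +1h minus normoxia was also above 0 for Nfkbib (0.23), Ikbkb (0.12), Rela (0.11) and Nfkbia (0.02), and was -0.05 for Tnip1. The other measured NF-kB genes were below the main set and lay on both sides of 0. Of 9 p53 targets Trp53inp1, which promotes autophagy and cell death, was 2-fold lower, at 498, 401 and 185 (-1.43). Mdm2 was at -0.79 and Ccng1 at -0.59. The other p53 targets were above 0, with Ccng2 at 0.67, Zmat3 at 0.45 and Ddit4 at 0.27. Aen and Phlda3 were at 0.05 and the cell cycle inhibitor Cdkn1a at 0.04. In the clock list Nr1d2, a repressor, was at 246, 178 and 136 (-0.85) and the kinase Csnk1d at 0.72.

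The large machines of the cell held few or no called genes, mostly with list medians close to 0. The respiratory chain and ATP synthase had 76 members in the main set, none called, with a median of -0.01. These ran from Cycs at -0.57 to Atp5a1 at 0.68. The cytosolic ribosome had 40, none called, with a median of 0.07, and the list of proteasome genes 41, none called, with a median of 0.06. The proteasome genes were spread to both sides, from Psmb10 at -0.85 to Psmd7 at 0.66. Of 67 mitochondrial ribosomal proteins only Mrpl33 was called, at 419, 182 and 132 (-1.67), and Mrpl33 was also the gene on which the normoxia arrays were furthest apart (-1.20). Of 36 genes listed with translation initiation only Eif2ak3, a kinase that acts on an initiation factor, was called, and the median was 0.16. The remaining lists held no called gene: sterol synthesis had a median of -0.04 over 23 genes, the MYC network -0.01 over 9, interferon and antigen presentation 0.13 over 7, zinc finger proteins named Zfp 0.12 over 14, Krüppel-like factors 1 gene at 0.21, and housekeeping genes 0.14 over 13.

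**Figure D4:**
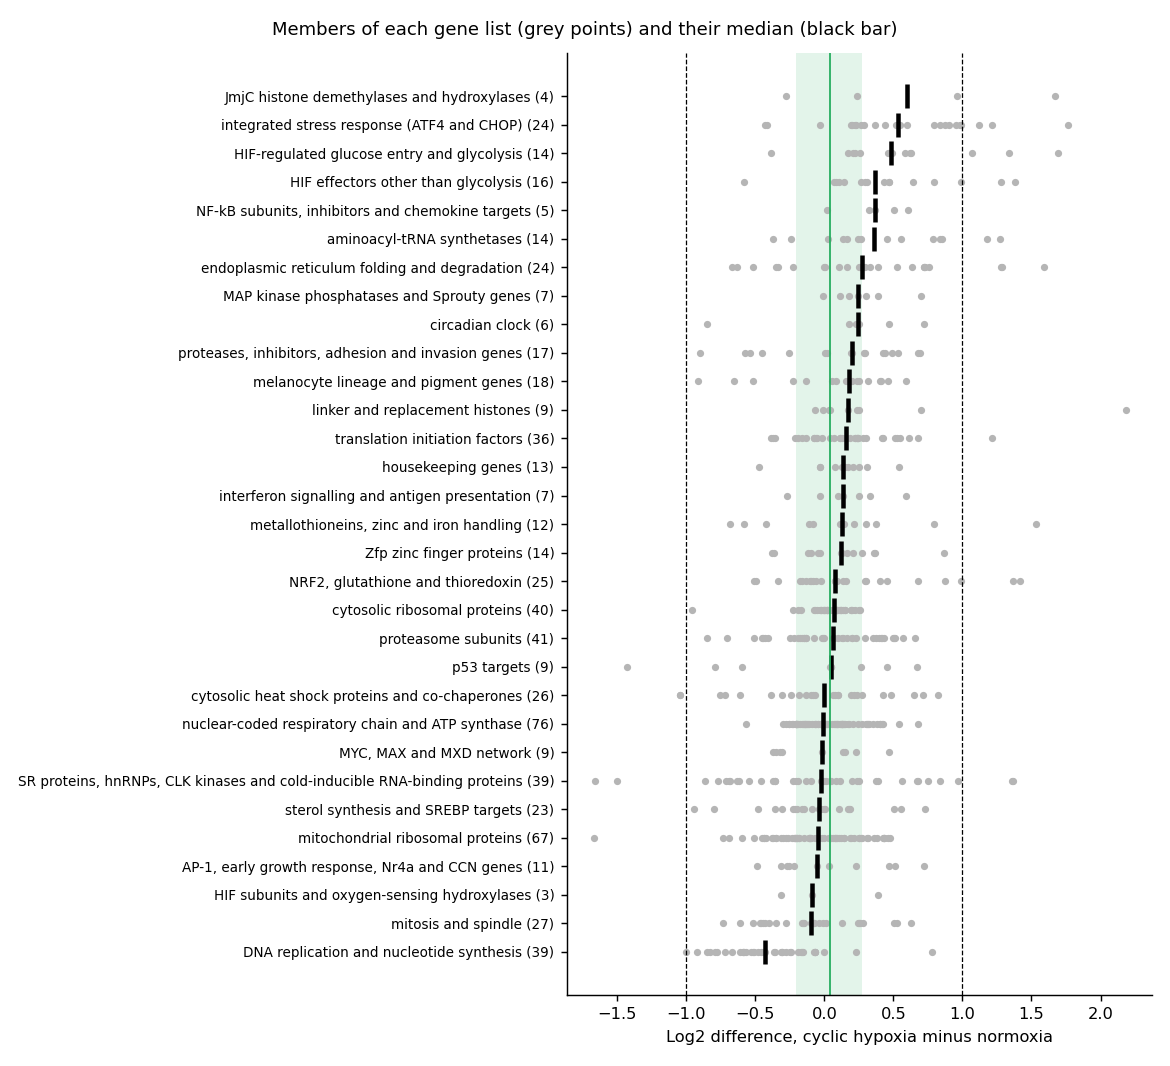
Each grey point is a gene of the main set, placed by its log2 difference between cyclic hypoxia and normoxia, in the list named on the y axis with its number of genes. Black bars are list medians, the green line and band the median and the middle part (first to last quartile) of all genes, and dashed lines 2-fold. The replication list has the lowest median (-0.43) and the stress response list one of the highest (0.53).

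Of the 37 higher genes 19 were in at least 1 of the lists (51.4%), of the 52 lower genes 7 (13.5%), against 660 of the 3573 genes of the main set (18.5%). The lists were drawn up with results of these arrays known, so the share of higher genes in them is partly built in. Among higher genes outside the lists were Arih2, a ubiquitin ligase partner of cullins, at 319, 266 and 850.3 (1.41), and Drg2, a GTP-binding protein, at 79.2, 68.3 and 202 (1.35). Both controls lay well under the cyclic array in these genes. Abhd12, a lipase of the endoplasmic reticulum, was at 146, 237 and 352 (1.27), with much of that difference also between the controls (0.70), and the transcription factor Foxj3 was at 108, 137 and 254 (1.24).

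The lower genes were spread over many functions. Dck, which salvages deoxynucleosides, was at 222, 142 and 72.4 (-1.62), Fignl1 at 209.9, 159 and 59.9 (-1.81), and Ncapg2, of condensin II, at 191, 165 and 78.4 (-1.29). The chromatin remodeller subunit Pbrm1 was at -1.22, the caspase inhibitor Birc6 at -1.30, the centrosome protein Cetn3 at -1.21, the nuclear protein C1d at -1.16 and Tspyl1, a nucleosome assembly relative, at -1.35. Acsl4, which activates arachidonate for membrane lipids, was at 172, 126 and 74.3 (-1.21), C1galt1c1, the chaperone of an O-glycan enzyme, at -1.31 and Lrrc58 at -1.34. Cav2, a caveolar coat protein, was at 724, 553, 323 and 143 in normoxia, normoxia +1h, cyclic hypoxia and its reoxygenation (-1.17).

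Several of the lowest genes rest on 1 probe set. Zdhhc6 was at 149.7 and 193 in the controls, 41.7 after cyclic hypoxia and 185 after its reoxygenation, a difference of -1.84, but its other probe set gave -0.12. Kpnb1, an importin that carries proteins into the nucleus, was at 836, 427 and 320.0 (-1.39), and its other bright probe sets gave -0.21 and -0.60. The cargo receptor Tmed7 gave -1.21 at its brightest probe set and 0.00 at the next, and Trub2, a mitochondrial pseudouridine synthase, -1.16, then -0.35 and 0.10. The probe sets with the large difference in these 4 genes carry the suffix of designs whose probes may match several transcripts, as 11 of the 52 lower genes, 4 of the 37 higher genes and 559 of the 3573 genes of the main set do.

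The later arrays gave a comparison that shares no array with this pair: cyclic hypoxia with 1 h of reoxygenation against normoxia +1h. In that pair 35 genes of the main set were 2-fold higher (0.98%) and 272 lower (7.61%), with 53.1% above 0. Of the 37 genes higher at the end of cyclic hypoxia 12 were 2-fold higher there too (32.4%), 35 were above 0 and none was 2-fold lower, with a median of 0.70. Of the 52 lower genes 32 were 2-fold lower there (61.5%), 44 were below 0 and none was 2-fold higher, with a median of -1.33. The later pair also differs by the hour of reoxygenation, so it is not a repeat of the first. H1f2 was at 2.04 in it, Srsf5 at 2.16, Hmox1 at 1.70, Bnip3 at 1.57 and Hk2 at 1.30. Ero1a (-0.38), Gtpbp2 (0.07), Hnrnpdl (0.13) and Kdm3a (0.41) were 2-fold higher at the end of the cycles and within 2-fold of the control in the later pair. Among lower genes Trp53inp1 (-2.58), Ncapg2 (-2.72) and Cav2 (-1.95) were lower still, Tardbp (-1.64) was about as low, and Zdhhc6 (-0.06), Kpnb1 (0.03) and Mrpl33 (0.41) were at or above the control.

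**Figure D5:**
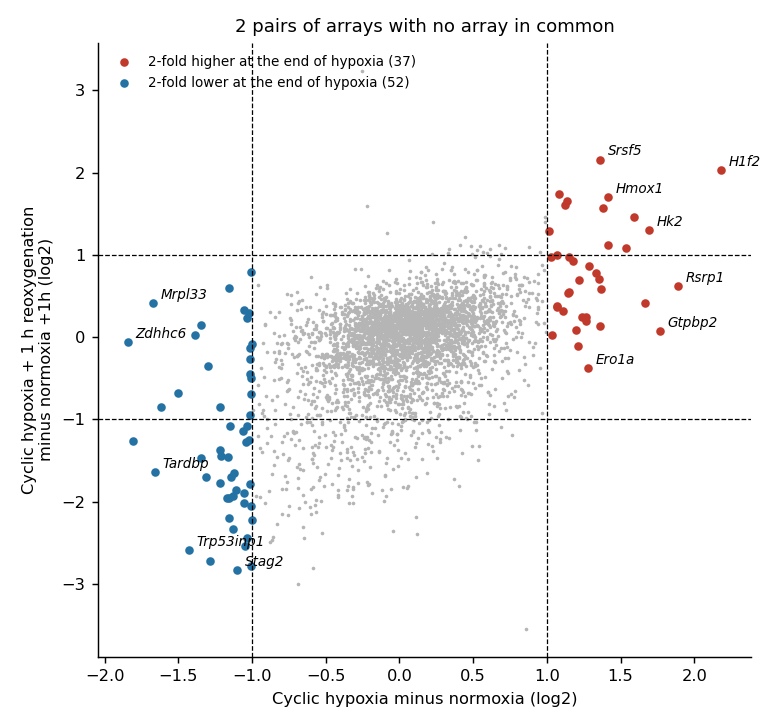
Log2 difference of cyclic hypoxia minus normoxia (x axis) and of cyclic hypoxia with 1 h of reoxygenation minus normoxia +1h (y axis) for 3573 genes. Red points are the 37 genes 2-fold higher on the x axis, 12 of them also above the upper dashed line, and blue points the 52 lower genes, 32 of them also below the lower dashed line.

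The 2-fold limit lay in the tail of the distribution, but some genes sat very close to it on either side. Just inside it on the high side were Zyx, an adhesion protein, at 1.01, and Got1, an aspartate aminotransferase, at 1.03, and just outside Dkk3 at 1.00 and Srxn1 at 0.99. On the low side the exportin Xpo1 at -1.0 and Pold1 at -1.0 were just inside and the splicing protein Sfpq, from 293 to 146, just outside at the same rounded value of -1.0. A limit of 1.5-fold would take in 253 higher and 243 lower genes.

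Among the 8820 genes below the main set 6.53% were 2-fold higher and 13.6% lower, where dim signals scatter more. Of those with 100 or more on an array of the pair, the highest after Clk4 and Cirbp were Osgin1, an NRF2-induced growth inhibitor, at 48.1, 47.7 and 162 (1.75), Nfxl1 at 1.56, Rapsn at 1.5, the COPII coat gene Sec24d at 1.47, Tmem39a at 1.31 and Pithd1 at 1.21. The lowest were Pdcl, a folding cofactor of G proteins, at 145, 77.2 and 37.4 (-1.96), AU020206 at -1.72, the protein kinase A inhibitor Pkia at -1.60, Lrr1 at -1.57, Cdc6 at -1.50, the kinetochore gene Cenpk at -1.46, Sh3bgrl at -1.41 and Rpf2, of ribosome assembly, at -1.41. Pdcl and Pkia were also lower in normoxia +1h than in normoxia, by -0.91 and -1.10.

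The arrays were alike in their overall measures. Each had the same trimmed mean of 100, leaving out 2% at each end, medians ran from 15.9 to 19.3 units, and 18.4% to 21.2% of values were under the floor of 2.1. The ratio of the 3′ to the 5′ control probe sets of Gapdh, a sign of RNA quality, was 0.799 in normoxia and 0.900 after cyclic hypoxia, the lowest and the highest of the 6, and that of Actb was 1.24 and 1.25. Whether the Gapdh ratio moved with any of the differences above was not tested. Probe sets without a single gene were left out of the counts: of 237 of the main set that name no gene 4 were 2-fold lower and none higher, and of 297 that name several genes 1 was higher and 6 lower.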

How the data were processed

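RNA of B16 cells was measured on 6 Affymetrix arrays, 1 per group. The deposited values are intensities (signals on a linear scale) for 22690 probe sets, which the authors made with GCOS, per the submitters' processing notes; its version, algorithm and scaling are not given in the sources used here. With no counts behind them, their precision is limited by the number of arrays. Values were used as deposited, those under 2.1 were set to 2.1, and log2 differences were taken with pandas 2.3.3 and numpy 2.4.6 in Python 3.11.15. Detection calls were not used here. Of the probe sets 20393 name 1 gene, 691 several and 1606 none; 64 controls were left out. Current symbols were found for 20364 through the RefSeq table (GRCm38.p6). Each gene was read from its brightest probe set.

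The genes named are the 20 highest and 20 lowest of the main set, up to 4 called and the 2 brightest members of each list, and the 8 highest and 8 lowest dimmer genes. Other list members were named after their values were seen. The members and 33 gene lists were chosen with earlier results of these data known. The counting was run on fixed shifts added to the normoxia array without noise, which checks the arithmetic only and not differences between real arrays. Alternatives covered the filter, floor, normalization, control array, probe sets and fold limit.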

Additional observations from a re-analysis of the deposited data

Results flagged for a closer look

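Hspa1b, the inducible HSP70, was singled out because it differed in opposite directions after cyclic and after chronic hypoxia from the same normoxia array. Its difference was -1.04 after cyclic hypoxia and 2.30 after chronic hypoxia. Its mean signal of 151, which placed it in the main set, rests largely on the array at the end of chronic hypoxia, at 532. The other Hspa1b probe sets gave -1.31 and -1.17 after cyclic hypoxia. Each side is 1 array and the difference between the regimes was not tested. No group had the 4 arrays that a search for a sample far from its group needs.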

How the results depend on the processing

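With 1 array per group no array could be left out in turn. No paired analysis was possible because each group has 1 array and no shared replicate. The counts of 37 higher and 52 lower genes, with 12 and 32 of them also 2-fold in the later pair, depended on the filter. They were 70 and 111 (19 and 55 in the later pair) at a mean signal of 50 or more, 23 and 22 (12 lower genes in the later pair) at 200 or more, and 613 and 1250 (152 and 226) with no filter, where the normoxia arrays alone gave 521 and 988. A limit of 1.5-fold gave 253 and 243 (66 and 130), and 20 and 23 between the normoxia arrays. The lower count was 19 against normoxia +1h and 28 against the mean of both normoxia arrays. The other 27 of 44 counts, with floors of 10 and 32, quantile normalization, median centring, the median over a gene's probe sets or without suffixed probe sets among their settings, stayed within 1.5 times. Of 339 list medians 59 moved by more than 0.07, the SD of list medians between the normoxia arrays, and none of them reversed. The replication median stayed between -0.46 and -0.34. Of 1114 values of named genes 132 moved by more than 0.21, and Tmed7 reversed, to 0.0034 without the suffixed probe sets, which is another probe set of the gene. The settings without suffixed probe sets and the later-pair counts were added after seeing the data.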
